A study of Mus musculus with 6 samples.

Results

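The 31 listed genes of the unfolded protein response and of amino acid stress were followed in liver ILC1, the group 1 innate lymphoid cells that reside in tissues. The genes were chosen by name, as endoplasmic reticulum (ER) chaperones, genes of the ATF4 type and amino acid transporters, and all 31 were among the 24091 rows of the count table. Of these, 28 passed the filter on low counts and were tested. Chac1, Slc7a11 and Vldlr did not pass it. Both groups were C57BL/6 mice. The mice labelled AML had received C1498 cells, a transplantable leukaemia line of that strain, by vein, and the healthy mice had not. ILC1 were taken from the liver of both at the time labelled day 14 after the tumour. There were 3 libraries per group, called healthy 1 to 3 and AML 1 to 3. Sex, exact age, the gating of the cells and the number of animals behind a library are not given in the labels. No label ties a library to its own animal, so the p-values reflect variation among 6 samples that may be technical in part. The comparison sets ILC1 of mice with acute myeloid leukaemia (AML) against those of healthy mice.

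The unfolded protein response adjusts the folding capacity of the ER to its load. The sensor IRE1 splices the mRNA of Xbp1, the sensor ATF6 is cut to release a transcription factor, and the sensor PERK phosphorylates the initiation factor eIF2alpha, after which general translation falls and that of Atf4 rises. The kinase GCN2 reaches the same factor when amino acids are scarce, so ATF4 target genes respond to both kinds of stress. In lymphocytes these genes serve secretion and growth, and the amino acid transporters among them are known to be induced on activation.

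The DNA ahead of these genes shows which of them carry the letters of the known response elements, so 9 stretches with matches ahead of the start site are shown first. The matches of Trib3 and Vldlr are given by position in the map of motif matches only. RefSeq promoter windows of GRCm38.p6, with 250 bases before and 50 from the annotated start, were at hand for 28 of the 31 genes, in 32 windows, and not for Manf, Slc1a5 and Slc7a5. The windows were searched on both strands for the ER stress element (CCAAT, 9 bases, CCACG), for the ER stress element II (ATTGG, 1 base, CCACG), for the XBP1-type element TGACGTGG and for the ATF4-type element TGATGNAA. No match overlapped another. The stretches below run 5′ to 3′ on the strand of the gene and reach 20 bases beyond the outermost matches, or to the start site. Capitals mark the letters of a match without its spacer. A match on the opposite strand reads as its reverse complement.
Hspa5, chr2:34772005-34772063, plus strand: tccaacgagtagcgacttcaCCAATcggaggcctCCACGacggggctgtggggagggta
Hsp90b1, chr10:86705513-86705676, minus strand: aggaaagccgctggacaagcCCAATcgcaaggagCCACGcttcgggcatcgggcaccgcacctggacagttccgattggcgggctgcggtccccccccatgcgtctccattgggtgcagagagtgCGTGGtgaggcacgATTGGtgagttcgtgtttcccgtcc
Pdia6, chr12:17266471-17266529, plus strand: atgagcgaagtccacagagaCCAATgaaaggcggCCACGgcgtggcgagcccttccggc
Dnajc3, chr14:118937807-118937865, plus strand: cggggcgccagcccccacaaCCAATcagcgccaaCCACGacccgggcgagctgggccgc
Creld2, chr15:88819500-88819558, plus strand: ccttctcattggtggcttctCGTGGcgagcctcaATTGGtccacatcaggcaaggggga
Herpud1, chr8:94386297-94386407, plus strand: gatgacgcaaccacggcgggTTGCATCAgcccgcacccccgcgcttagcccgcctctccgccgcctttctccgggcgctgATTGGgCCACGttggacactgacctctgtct
Asns, chr6:7693210-7693252, minus strand: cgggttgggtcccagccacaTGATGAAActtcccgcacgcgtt
Chac1, chr2:119351029-119351076, plus strand: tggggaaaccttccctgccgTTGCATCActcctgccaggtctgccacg
Slc7a11, chr3:50443633-50443699, minus strand: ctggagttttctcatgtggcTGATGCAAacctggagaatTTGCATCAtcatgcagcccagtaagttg

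The ER stress element was found for 5 members, Hspa5, Hsp90b1, Pdia6, Dnajc3 and Creld2, all of them chaperones or folding genes. Hsp90b1 held it in both orientations. Of all 32851 windows of the same length, 0.119% held this element. The second form was found for Herpud1 alone among the members and in 0.0365% of all windows. The ATF4-type element was found for 6 members, namely Asns, Chac1, Herpud1, Slc7a11, Trib3 and Vldlr, against 3.97% of all windows, and in Trib3 it lay after the start site. The XBP1-type element was found for 0 members and in 0.676% of all windows. Of the 9687 tested genes with windows, 0.1755% held the ER stress element, 0.0826% its second form, 2.81% the ATF4-type and 1.05% the XBP1-type element. Chac1, Slc7a11 and Vldlr were not among the tested genes. The matches are descriptions of letters, not measured binding.

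**Figure D1:**
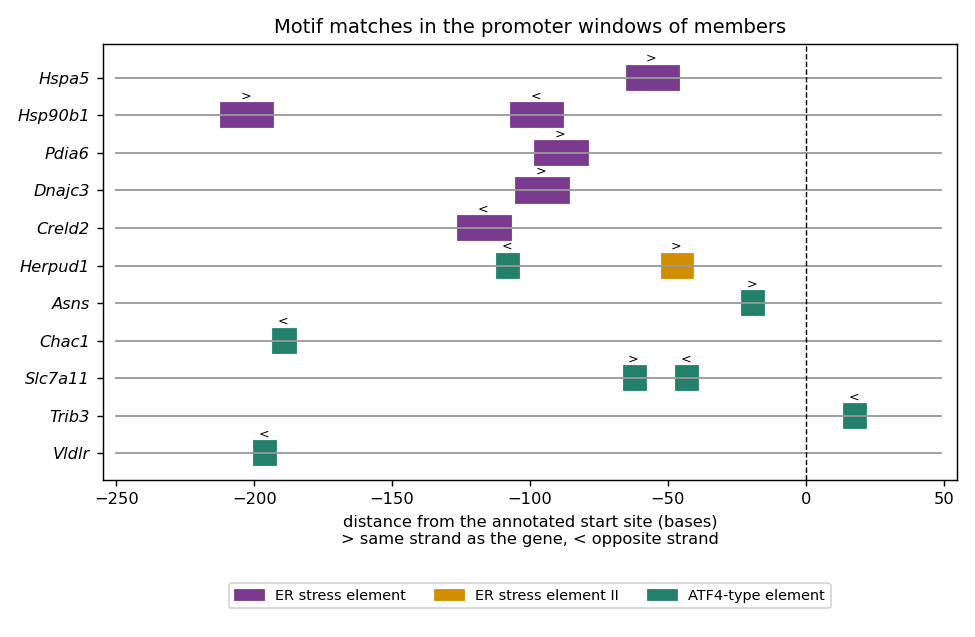
Positions of motif matches in the promoter windows of the 11 members that held any, in bases from the annotated start site (dashed line), with the strand of each match marked by > or <. The 5 genes with the ER stress element hold it between 47 and 212 bases before the start.

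Total counts ran from 45135093 to 51284691 per library, where 3 reads, the limit that a count of 0 allows, equal 0.0574 to 0.0642 CPM (counts scaled to library size, per megaread). All levels in CPM are after TMM scaling. The ILC1 and NK lineage genes summed to 18492 to 19756 CPM in healthy and 16093 to 18779 CPM in AML libraries, led by Gzmb and Il2rb, while Cd3g stood at 951 to 1646 CPM. Of the 11 lineage genes, 6 had a positive and 5 a negative log2 difference, from -0.40 to 0.54. That list pools ILC1 with NK genes, so its sum does not tell these cells apart. Macrophage genes summed to 31.8 to 108 CPM in healthy and 138 to 212 CPM in AML libraries, led by Csf1r and Cd68. Monocyte and neutrophil genes summed to 320 to 803 and 833 to 985 CPM, led by Lyz2 and Ccr2, and dendritic cell genes, led by Itgax and Cd74, to 923 to 957 and 1197 to 1338 CPM. Healthy 1 stood apart from the other healthy libraries, with Lyz2 at 459 CPM against 35.03 and 33.1 CPM. Of the macrophage, monocyte and dendritic cell genes tested, 10 of 10, 7 of 8 and 11 of 12 had a positive log2 difference, 0 of them past an edgeR adjusted p of 0.05, and Ly6g had 0 reads in each library. T cell genes (nearly all Cd3g, then Cd3d) summed to 1372 to 1692 CPM in healthy and 979 to 1351 CPM in AML libraries. Hepatocyte genes (Trf, then Alb) summed to 231 to 277 and 187 to 206 CPM, and 11 of these 12 genes averaged under 1 CPM. Both sums were lower in AML without overlap. In each of these lists 6 genes were tested, of which 4 had a negative and 2 a positive log2 difference. Only 1 of the 6 in each list was lower without overlap. The sums of the remaining lists overlapped between the groups. Liver endothelium genes (Pecam1, then Bmp2) summed to 92.7 to 126 CPM, and 7 of these 8 genes averaged under 1 CPM. Sums were 48.7 to 67.9 CPM for plasma cells (Prdm1, then Derl3) and 6.43 to 31.2 CPM for progenitors and blasts (Kit, then Cd34). B cell genes (Cd79b, then Cd22) summed to 6.73 to 11.7 CPM. Of the genes that define plasma cells, Jchain, Mzb1 and Sdc1 had at most 13, 11 and 22 reads in a library, and Tnfrsf17 had 0. Pax5 of B cells and Cps1 of hepatocytes also had 0, and Alb had 4 to 151 reads. In these bulk samples fewer cells of a type and less RNA per cell cannot be told apart.

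By edgeR's quasi-likelihood test, 0 of the 28 tested members passed an adjusted p of 0.05, where 0% of the 12469 genes tested did. At an unadjusted p below 0.05 there was 1 member, Slc3a2, which was lower in AML. Of all genes 8.84% reached that p, 3.75% lower and 5.08% higher in AML. The groups did not overlap for 1 member, again Slc3a2, against 7.34% of all genes with every AML library lower and 8.2% with every AML library higher. By p and by overlap the members' counts were thus not above the background. Their median log2 difference (the log2 fold change, AML minus healthy) was -0.04, against 0.01 over all genes. Of the 28, 19 or 67.9% were negative, against 48.0% of all genes. For 21 of the 28, or 75.0%, the fold change lay within 0.25 of 0 on the log2 scale, which held for 68.3% of all genes. DESeq2, the likelihood ratio test of edgeR and limma-voom also called 0 members, while calling 143, 100 and 0 genes. At an unadjusted p below 0.05 each of these 3 tests had 2 of the 28 members, Slc3a2 and Dnajb9, where 10.1%, 8.59% and 10.8% of all genes reached that p. The authors' deposited table lists 25 of the members, with 0 at an adjusted p below 0.05, where 74 of its 9769 genes, or 0.757%, are.

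**Figure D2:**
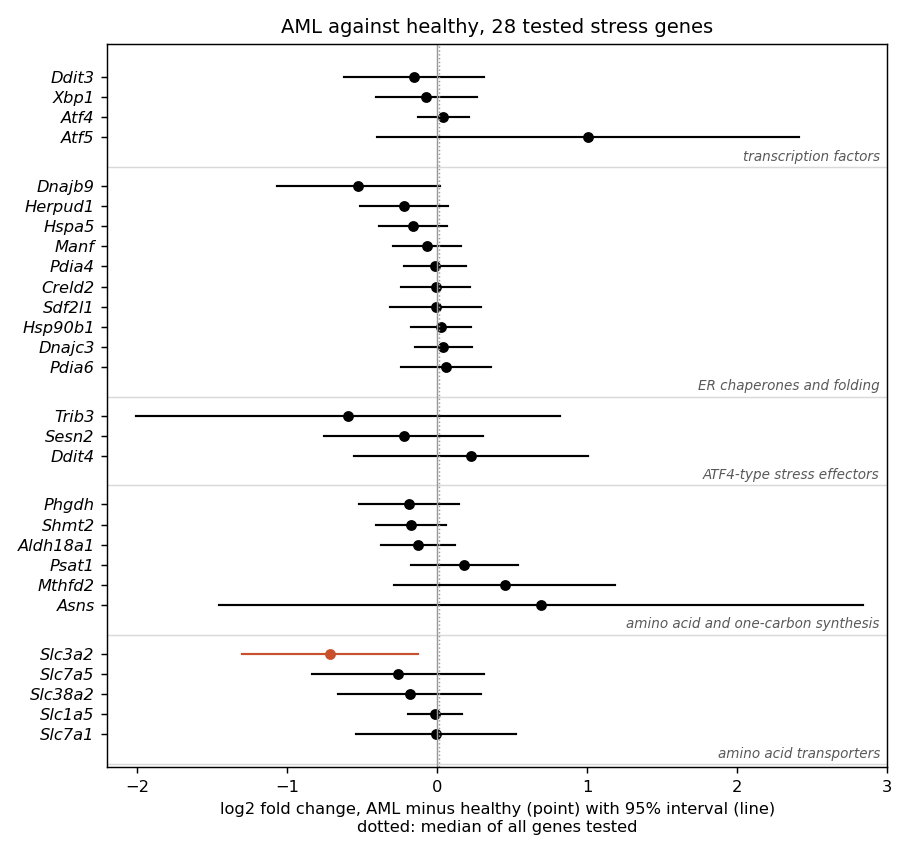
Log2 fold change of each tested member, AML minus healthy, with its 95% interval from the edgeR fit, grouped by role. The interval of Slc3a2, in colour, ends at -0.13 and those of the other members include 0.

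Per length the members spread over a wide range in ILC1. Hspa5, the chaperone BiP, measured 1424 ± 126 RPKM (CPM per kilobase of transcript, SD, n = 3) in healthy libraries. By its mean RPKM over all 6 libraries it ranked 28 of the 12469 genes tested. Hsp90b1 and Atf4 followed at 299 ± 11.8 and 283 ± 16.1 RPKM in healthy libraries, with ranks, taken the same way, of 168 and 177. Slc3a2 stood at 212 ± 27.2 RPKM and Herpud1 at 195 ± 14.4 RPKM. At the other end Trib3, Atf5 and Asns measured 0.370 ± 0.2502, 0.238 ± 0.0819 and 0.0779 ± 0.0799 RPKM. Of the 6 members with the ATF4-type element in their window, all but Herpud1 were under 1 CPM on average in both groups.

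**Figure D3:**
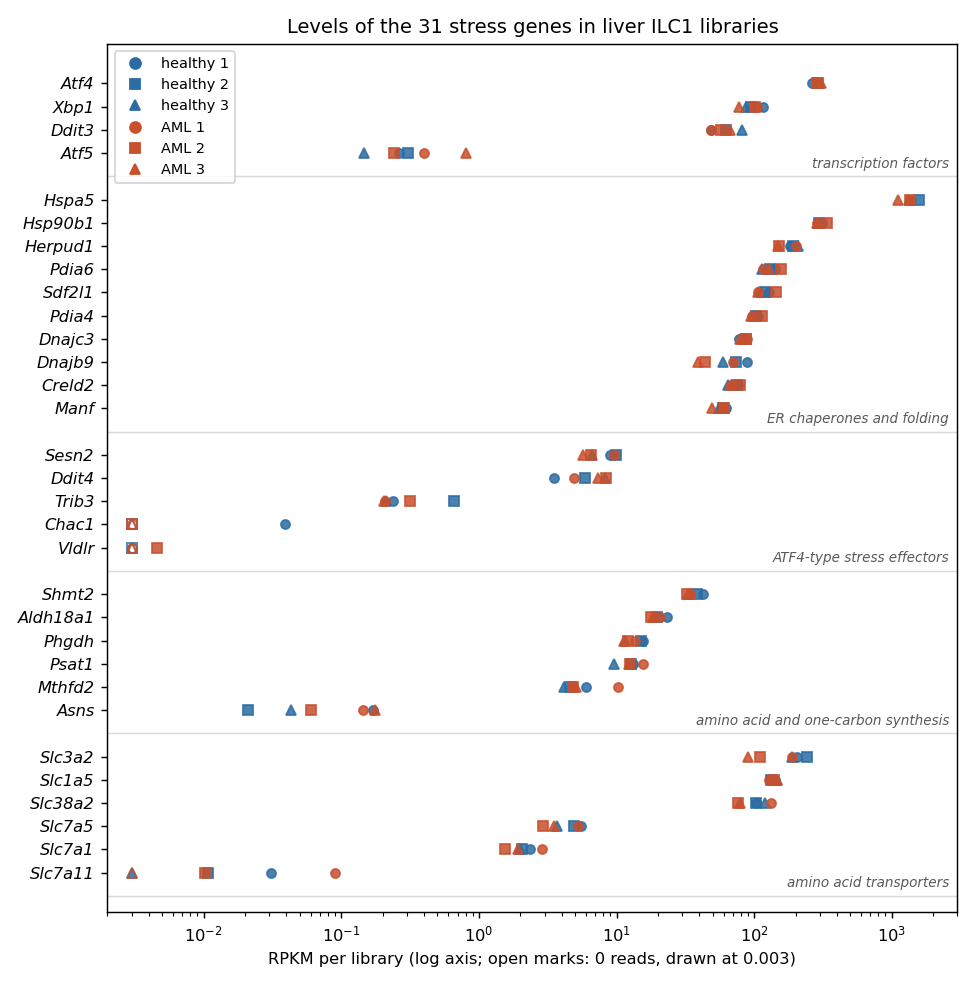
Level of each of the 31 members in each library, in RPKM on a log axis, grouped by role. All 10 chaperone and folding genes lie to the right of 10, whereas Trib3, Asns, Atf5, Slc7a11, Chac1 and Vldlr lie below the rest of the members in every library.

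Among the transcription factors the healthy and AML libraries overlapped. Atf4 (chr15:80255184-80257545), the factor whose translation rises on eIF2alpha phosphorylation, measured 456, 502 and 506 CPM in healthy and 484, 496 and 526 CPM in AML libraries. It was nearly level across the 6 libraries, with a log2 difference of 0.04 ± 0.07 (SE) and a 95% interval of -0.13 to 0.21. Xbp1 (chr11:5520641-5525993), which drives ER expansion once its mRNA is spliced, measured 261, 214 and 197 CPM in healthy and 237, 227 and 175 CPM in AML libraries. Its log2 difference was -0.07 ± 0.14, with an interval of -0.41 to 0.26. Counts per gene do not tell the spliced from the unspliced form. Ddit3, which encodes the death-linked factor CHOP, measured 41.8, 54.3 and 71.2 CPM in healthy and 41.8, 49.998 and 58.1 CPM in AML libraries. The spread within each group was larger than the difference, a log2 difference of -0.16 ± 0.20. Atf5, a relative of ATF4, was scarce, at 0.291 to 0.603 CPM in healthy and 0.479 to 1.598 CPM in AML libraries, or 14 to 76 reads. Exons of Ddit3 and Atf5 share 68 and 82 bases with Mars and Nup62 on the opposite strand, which had 22449 and 28826 reads in all. Without strand information reads in the shared bases cannot be assigned, so the values of Atf5 are uncertain.

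The chaperone and folding genes had a median difference of -0.01 over 10 genes, and 0 of them had groups that did not overlap. Hspa5 (chr2:34772090-34776529) measured 3571, 4088 and 3480 CPM in healthy and 3528, 3530 and 2917 CPM in AML libraries. AML 3 was lowest and healthy 2 highest, and the other 4 lay close together. The log2 difference was -0.16 ± 0.10 (SE), with an interval of -0.39 to 0.07 and an edgeR adjusted p of 0.640. Hsp90b1 (chr10:86690841-86705444), the ER form of HSP90, measured 857, 808 and 796 CPM in healthy and 785, 930 and 787 CPM in AML libraries. AML 2 was the highest library and the 5 others lay within 785 to 857 CPM. Its log2 difference was 0.02 ± 0.09, with an interval of -0.18 to 0.23.

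AML 2 was also the highest of all 6 libraries for other genes of this group. Pdia6, a disulphide isomerase, measured 405, 371 and 328 CPM in healthy and 333, 451 and 365 CPM in AML libraries. For Pdia4, of the same enzyme family, the values were 261, 255 and 243 against 236, 280 and 235 CPM. Sdf2l1, part of an ER chaperone complex, measured 142, 132 and 125 against 118, 160 and 117 CPM, and Creld2, an ER-resident stress protein, 103, 102 and 86.8 against 91.8, 106 and 91.6 CPM. In these genes AML 2 lay above every healthy library, and AML 1 and AML 3 lay at or below the healthy mean. Dnajc3, which encodes the co-chaperone p58IPK, had 400 to 450 CPM in healthy and 407 to 461 CPM in AML libraries. Manf, a secreted ER protein, had 133 to 150 and 118 to 144 CPM. The log2 differences of these 6 genes lay between -0.07 and 0.06.

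In Dnajb9 and Herpud1 it was AML 1 that differed from the other AML libraries. Dnajb9 (chr12:44205897-44210068), an ER co-chaperone known as a target of spliced XBP1, measured 164, 138 and 111 CPM in healthy and 132, 82.2 and 72.9 CPM in AML libraries. AML 2 and AML 3 lay below every healthy library and AML 1 lay among them. Its log2 difference was -0.53 ± 0.23 (SE), with an interval of -1.07 to 0.02 and an edgeR adjusted p of 0.568. Herpud1 (chr8:94386500-94395358), which acts in the degradation of ER proteins and carries the second form of the ER stress element shown above, measured 338, 359 and 391 CPM in healthy and 373, 284 and 275 CPM in AML libraries. Again AML 1 lay among the healthy libraries and the other two below them, with a log2 difference of -0.22 ± 0.13. Without healthy 1 and AML 1 both genes passed in the edgeR test, with log2 differences of -0.68 and -0.42 and adjusted p of 0.0223 and 0.0414. In that setting 3.54% of all genes were called and 2 libraries per group remained. The pair to leave out was chosen with earlier results of these data known. Over the alternatives run, the adjusted p ranged from 0.0223 to 0.828 for Dnajb9 and from 0.0414 to 0.866 for Herpud1.

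Of the stress effectors of the ATF4 type, Chac1, Vldlr and Trib3 were scarce, and Sesn2 and Ddit4 were not. Chac1, an enzyme that degrades glutathione, had 3 reads in healthy 1 and 0 in the 5 other libraries. Vldlr, a lipoprotein receptor, had 2 reads in AML 2 and 0 elsewhere, so neither gene could be compared at this depth. Trib3, a pseudokinase that feeds back on ATF4, had 20 to 67 reads per library, with healthy 2 highest at 1.35 CPM and the 5 other libraries at 0.421 to 0.651 CPM. Sesn2, a leucine sensor that restrains mTORC1, measured 23.7, 26.2 and 17.4 CPM in healthy and 25.4, 17.2 and 15.1 CPM in AML libraries, and the groups overlapped. Ddit4, another inhibitor of mTORC1, measured 5.88, 9.97 and 14.0 against 8.32, 14.1 and 12.4 CPM, with healthy 1 and AML 1 lowest in their groups. The log2 differences of Trib3, Sesn2 and Ddit4 were -0.60 ± 0.61 (SE), -0.22 ± 0.23 and 0.22 ± 0.33.

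The genes of amino acid and one-carbon synthesis differed more in level than between the groups. Shmt2, the mitochondrial serine hydroxymethyltransferase (chr10:127517123-127522444), measured 96.8, 88.8 and 75.8 CPM in healthy and 78.3, 74.5 and 78.5 CPM in AML libraries, and the log2 difference was -0.18 ± 0.10 (SE). The AML libraries were close together and overlapped with healthy 3. Aldh18a1, of proline synthesis, had 73.8 to 90.5 CPM in healthy and 68.9 to 80.3 CPM in AML libraries. Phgdh and Psat1, both of serine synthesis, had 21.4 to 29.1 against 21.1 to 25.3 CPM and 26.6 to 36.6 against 33.9 to 43.1 CPM. Mthfd2, of mitochondrial folate metabolism, measured 12.3, 9.41 and 8.58 CPM in healthy and 21.1, 9.90 and 10.4 CPM in AML libraries. AML 1 alone stood apart, and without it the log2 difference of 0.45 became 0.0062. Asns, asparagine synthetase, had 2 to 16 reads in each library and at most 0.336 CPM, while Psat1 and Phgdh, also known as ATF4 targets, had 1003 to 2015 reads.

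Among the amino acid transporters Slc3a2 was the member with the smallest p. It encodes the heavy chain of CD98 (chr19:8706882-8723369), which carries light chains such as the product of Slc7a5 to the cell surface. Slc3a2 measured 603, 712 and 556 CPM in healthy and 552, 323 and 265 CPM in AML libraries. Every AML library was lower than every healthy library, yet AML 1 lay only just below healthy 3, and AML 2 and AML 3 lay far below both. The means were 624 ± 80.1 CPM and 380 ± 152 CPM (SD, n = 3 each), a log2 difference of -0.71 ± 0.25 (SE) with a 95% interval of -1.30 to -0.13. The unadjusted p was 0.0235 and the adjusted p, by edgeR's quasi-likelihood test, 0.497, so it did not pass. In the authors' deposited table it has a log2 difference of -0.71 and an adjusted p of 0.0894. Without AML 1 it passed in the edgeR test, at a log2 difference of -1.09 and an adjusted p of 0.0145, where 1.15% of all genes were called. Without healthy 1 and AML 1 it was -1.11 at an adjusted p of 0.00367, where 3.54% of all genes were called with 2 libraries per group. Over the alternatives run the adjusted p ranged from 0.00367 to 0.818.

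The other transporters overlapped between the groups. Slc38a2 (chr15:96687392-96699698), which takes up small neutral amino acids with sodium, measured 485, 482 and 557 CPM in healthy and 616, 357 and 367 CPM in AML libraries. AML 1 was the highest of all libraries and AML 2 and AML 3 the lowest. Its log2 difference of -0.19 ± 0.21 (SE) became -0.52 without healthy 1 and AML 1, at an edgeR adjusted p of 0.0238. There 3.54% of all genes were called with 2 libraries per group. Over the alternatives run the adjusted p ranged from 0.0238 to 0.974. Slc7a5, the light chain LAT1, measured 19.5, 17.5 and 13.02 CPM in healthy and 18.7, 10.4 and 12.6 CPM in AML libraries. The RPKM of Slc3a2 was 37.3 to 51.4 times that of its partner in healthy and 25.4 to 37.3 times in AML libraries. Slc1a5, the glutamine transporter ASCT2 (chr7:16781346-16798274), was level, at 390, 362 and 400 CPM against 355, 383 and 401 CPM, with an interval of -0.20 to 0.17 for its log2 difference of -0.02. Slc7a1, a transporter of cationic amino acids, had 14.4 to 17.0 and 11.3 to 20.9 CPM. Slc7a11, the cystine transporter xCT, had 47 reads in AML 1, 17 in healthy 1 and at most 6 in the other libraries.

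**Figure D4:**
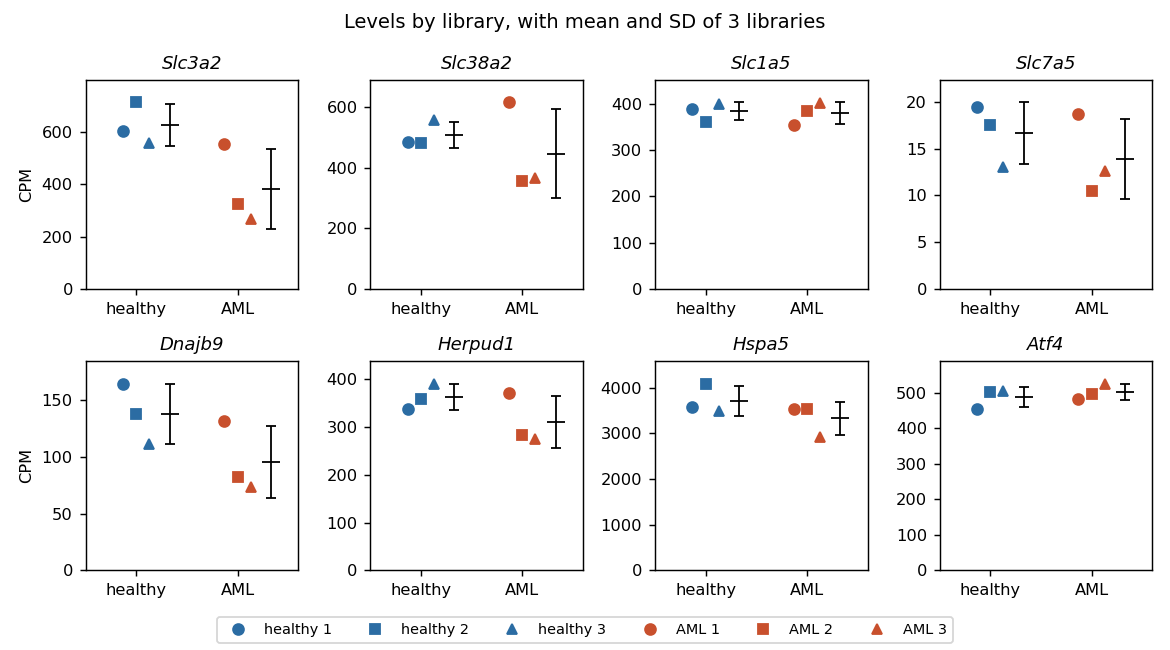
CPM in each library for 8 members, from 0, with the mean and SD of 3 libraries per group in black. AML 2 and AML 3 lie below every healthy library for Slc3a2, Slc38a2, Dnajb9 and Herpud1, and AML 1 does so for Slc3a2 alone among these 4, while Slc1a5 and Atf4 are level.

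The 4 members Slc3a2, Slc38a2, Dnajb9 and Herpud1 were those called without healthy 1 and AML 1, of 27 members tested, where 3.54% of all genes were called. All 4 were lower in AML, as were 219 of all the genes called, while 225 were higher. The pair left out was chosen with earlier results of these data known, and 2 libraries per group remained. AML 1 was the highest AML library for 14 of the 28 tested members, and for 38.6% of all genes. Healthy 1 was the highest healthy library for 16 of the 28, and for 35.2% of all genes. The summed macrophage, monocyte and dendritic cell genes did not overlap between the groups and were higher in AML libraries. Nor did the summed T cell genes (nearly all Cd3g) and hepatocyte genes (nearly all Trf) overlap, and those sums were lower in AML libraries. The part of any of these in the lower Slc3a2 was not tested. Healthy 1 held Lyz2 at 459 CPM, within the AML range of 434 to 567 CPM, and Slc3a2 at 603 CPM, above every AML library. Its summed macrophage, monocyte and dendritic cell genes, at 108, 803 and 950 CPM, all lay below every AML library.

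**Figure D5:**
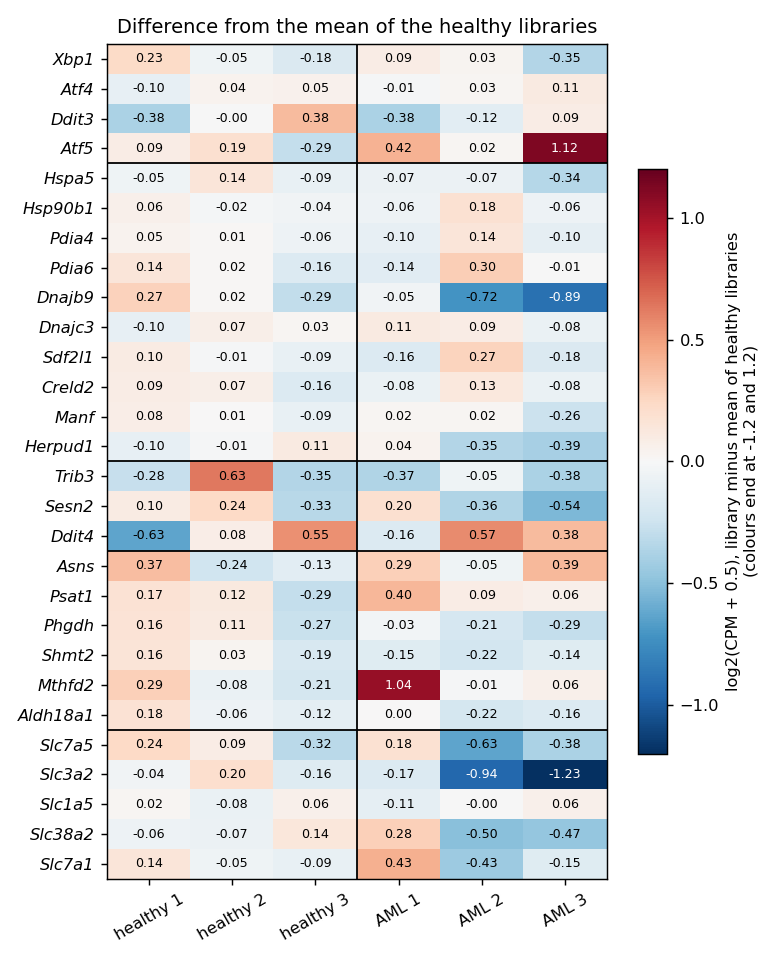
Difference of each library from the mean of the healthy libraries for the 28 tested members, on the log2(CPM + 0.5) scale. Slc3a2 reads -0.17 in AML 1 against -0.94 and -1.23 in AML 2 and AML 3, and those of Slc1a5 stay between -0.11 and 0.06.

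The rest of the pathway was read from 7 lists, of which 125 genes were in the count table and 115 were tested. With all 6 libraries 0 of the 115 passed an adjusted p of 0.05 in edgeR's quasi-likelihood test, and 15 had an unadjusted p below 0.05, where 8.84% of all genes did. Of the 15, 4 were higher and 11 lower in AML, against 5.08% and 3.75% of all genes. Other tests called Eif2ak2 (DESeq2 and the likelihood ratio test) and Slc7a8 (DESeq2), both higher, where DESeq2 called 1.15% and the likelihood ratio test 0.802% of all genes. Without AML 1 the quasi-likelihood test called 4 of 117 pathway genes, Cebpb, Sqstm1, Vegfa and Ube2j1, all lower. There 1.15% of all genes were called, of which 123 were lower and 24 higher in AML. Without healthy 1 and AML 1 the quasi-likelihood test called the same 4 with Bbc3 and Ppp1r15a, 6 of 115 and all lower. In that setting 3.54% of all genes were called, 219 lower and 225 higher. The aminoacyl-tRNA synthetases, which charge tRNAs and many of which ATF4 induces, had a median difference of -0.15 over 20 genes. Of the 20, 18 were negative, against 48.0% of all genes, and 5 had an unadjusted p below 0.05 and were lower, against 3.75%. For 7 of them the AML libraries were all lower than the healthy ones, which held for 7.34% of all genes. Gars, the glycine enzyme, measured 137, 139 and 124 CPM in healthy and 117, 98.6 and 105 CPM in AML libraries, and the log2 difference was -0.32 ± 0.09 (SE) with an edgeR adjusted p of 0.415. Yars, the tyrosine enzyme, measured 84.5, 84.4 and 77.4 against 63.9, 67.9 and 72.4 CPM. Without each library in turn the median stayed between -0.21 and -0.11, 0 synthetases passed an adjusted p of 0.05, and 3 to 8 had an unadjusted p below 0.05 and were lower, where 2.28% to 8.01% of all genes did. Without both healthy 1 and AML 1 the last count was 1, where 7.23% of all genes did.

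Stress sensors and regulators of eIF2alpha had a median of -0.02 over 17 genes, with 1 higher and 2 lower at an unadjusted p below 0.05, against 5.08% and 3.75% of all genes. In 5 of the 17, or 29.4%, every AML library was below every healthy library, against 7.34% of all genes. Eif2ak2, the double-stranded RNA kinase PKR and also an interferon response gene, measured 26.0, 24.5 and 22.2 CPM in healthy and 35.7, 32.4 and 38.9 CPM in AML libraries, and the log2 difference was 0.56 ± 0.11 (SE) with an edgeR adjusted p of 0.399. Ppp1r15a, the inducible subunit GADD34 that returns eIF2alpha to its unphosphorylated state, measured 1365, 1534 and 1473 against 1351, 1153 and 1138 CPM, a log2 difference of -0.26 ± 0.09. Other ER folding genes had a median of 0.02 over 19 genes, with Hyou1, an ER chaperone of the HSP110 type, at a log2 difference of 0.23 ± 0.10 and Sil1, a nucleotide exchange factor of BiP, at -0.23 ± 0.11. Genes of ER-associated degradation had a median of -0.01 over 16 genes, with Ube2j1 and Selenos at -0.36 ± 0.15 and -0.22 ± 0.10.

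Other genes of the ATF4 type had a median of -0.09 over 15 genes, which moved when single libraries were left out. The filter on low counts was run again there, so the genes tested changed too. The median was -0.28 without AML 1, -0.15 without healthy 3 and -0.05 without AML 3, each over 17 genes. It was -0.27 without healthy 2 and -0.03 without AML 2, each over 16 genes. Without healthy 1 it was -0.11 over 15 genes. Cebpb, a transcription factor, measured 716, 667 and 480 CPM in healthy and 572, 328 and 311 CPM in AML libraries, with AML 1 among the healthy libraries as for Dnajb9. Gdf15, a stress cytokine, stood at 0.0415 to 0.243 CPM in healthy and 0.268 to 1.24 CPM in AML libraries, that is 2 to 58 reads. Other amino acid transporters had a median of 0.01 over 11 genes. Slc7a8, a light chain of CD98, had 0 to 30 reads in healthy and 99 to 249 in AML libraries, and Slc7a6 a log2 difference of -0.30 ± 0.12. The genes of amino acid sensing by mTORC1 had a median of 0.06 over 17 genes, with Rragc, a Rag GTPase, at -0.28 ± 0.09 and Depdc5, of the complex that inhibits the Rag GTPases, at 0.32 ± 0.17.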

How the data were processed

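Poly(A) mRNA of liver ILC1 was sequenced without strand information, per the labels' protocols, from 2 ng of total RNA per library. The authors deposited raw read counts per gene for 6 libraries, which were used for all tests, with gene lengths in kilobases. The authors' deposited table of their comparison gives log2 fold changes, a likelihood ratio score, p-values and adjusted p-values. Its values per library are not whole numbers and equal the RPKM of the deposited counts closely (median ratio 1.00 in AML 1). They entered no test. The submitters' processing notes name STAR 2.6.0, HTSeq 0.6.0, edgeR 3.28.1 and the builds mm10 and hg19. The sources used here do not give the counting options.

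Counts were tested with edgeR 4.0.16 (quasi-likelihood F test, TMM, filterByExpr at a minimum count of 10, group only, two-sided, Benjamini-Hochberg over 12469 genes). The procedure was also run on simulated counts, with the same setting of the spread for every gene and no library set apart. That setting is simpler than these data, so it does not bear on the small differences reported here. SE is the log2 difference over the root of F, and 95% intervals use the moderated degrees of freedom. An exact permutation test of 3 against 3 cannot go below 0.1, so it was not used. Totals limit precision for counting error only, since reads are not independent molecules. All 31 members are named. For the other pathway lists the 2 genes with the smallest p are named, and for marker lists the 2 with the highest level. Other marker genes, and pathway genes named because an alternative called them, were chosen after their values were seen. Members and lists were chosen with earlier results of these data known. Alternatives were DESeq2 1.42.0, limma-voom (limma 3.58.1), the likelihood ratio test, other size factors and filters, the replicate number as a block, and left-out libraries. Positions are those of the count table, whose member genes all lie on the RefSeq chromosome of GRCm38.p6, 24 of 31 with the same start.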

Additional observations from a re-analysis of the deposited data

How the results depend on the processing

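Over all genes, the count past an adjusted p of 0.05 was 0 with DESeq2 size factors, the stricter filter (minimum count of 50) and limma-voom, 2 without a filter on low counts, 143 by DESeq2, 100 by the likelihood ratio test and 444 without healthy 1 and AML 1. Leaving out 1 library gave 0 to 147, with 89 without healthy 1 and 147 without AML 1. Members past the threshold were 0 under each of these settings, except 1 without AML 1 (range 0 to 1 over single libraries) and 4 without both healthy 1 and AML 1. The cause was not tested. The median over the members ran from -0.09 to 0.02, over 25 to 31 members by setting. The members' median deviation in single healthy libraries had an SD of 0.11 on the log2 scale. That is the spread of single libraries, not of a difference between groups.

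Of 388 recomputed log2 differences of single members, 351 kept their direction and side of the threshold, 5 came to pass it, 0 were lost and 32 changed sign, in 14 members. All sign changes came with left-out libraries. Without healthy 1 and AML 1 they were Pdia4 at 0.0467, Dnajc3 at -0.043, Sdf2l1 at 0.115, Creld2 at 0.0686 and Slc1a5 at 0.0419. Single left-out libraries gave -0.168 to 0.0503 for Xbp1, -0.00878 to 0.0663 for Atf4, -0.331 to 0.0488 for Ddit3, -0.0626 to 0.0655 for Hsp90b1, -0.104 to 0.0268 for Pdia4, -0.0791 to 0.146 for Pdia6, -0.0122 to 0.0935 for Dnajc3, -0.174 to 0.0682 for Sdf2l1, -0.0958 to 0.0306 for Creld2, -0.121 to 0.0183 for Manf, -0.878 to 0.107 for Trib3, -0.0464 to 0.543 for Ddit4, -0.0646 to 0.0305 for Slc1a5 and -0.299 to 0.169 for Slc7a1.

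Replicate numbers were shared by both groups, but no label pairs them. The deviations of same-numbered libraries had correlations of 0.13, -0.05 and 0.16, and healthy 2 did not correlate best with its own number. With the number as a replicate block 0 genes and 0 members passed, and 3 members, Slc3a2, Dnajb9 and Hspa5, had an unadjusted p below 0.05, where 11.7% of all genes did. Members under about 1 CPM (Asns, Atf5, Trib3, Slc7a11, Chac1 and Vldlr) are limited by depth. The lists of synthetases and other pathway genes were recomputed under these settings as a choice made after seeing the data.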
